A study of Homo sapiens with 70 samples.

Results

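The comparison described here is the effect of p53 knock-down on RAS-induced senescent fibroblasts that were also depleted of C/EBPβ. It rests on 10 of the 70 samples of the series, 5 in each of 2 groups. All 10 are IMR90, a human lung fibroblast line, and all carry the retroviral construct pLNCX2 ER:HRAS G12V, an oncogenic RAS fused to a hormone-binding domain that 4-hydroxytamoxifen (4OHT) switches on. All 10 were kept for 6 days in 100 nM 4OHT, by which time oncogene-induced senescence (OIS) is established. The OIS-shCEBPB group carries pSuper shCEBPB, a short hairpin against the C/EBPβ transcript, with the empty vector pMSCV miR v. The OIS-shCEBPB-shp53 group carries the C/EBPβ hairpin with pMSCV miR p53, a microRNA-embedded hairpin against the p53 transcript, so that the p53 hairpin is the labelled difference between the groups. The label of the second group reads pSuper CEBPB, without the letters that mark a hairpin, and the level of CEBPB was therefore checked in it. Each line is a stably transduced population, and the libraries are described in the study's methods as biological replicates. For the single hairpins the study describes stable expression first and RAS induction afterwards.

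p53 is a transcription factor that is activated by DNA damage and oncogene signalling and switches on genes for growth arrest, apoptosis, DNA repair and its own degradation. One of these genes, CDKN1A, encodes the kinase inhibitor p21, which keeps the RB proteins active and so holds E2F and cell cycle genes down. C/EBPβ is a transcription factor that drives the inflammatory part of the senescence-associated secretory phenotype (SASP).

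CEBPB, the gene of C/EBPβ (ENSG00000172216, 20:48807376-48809212, plus strand, hg19) was at 36.6, 40.1, 42.7, 31.4 and 26.6 CPM (counts scaled to library size) in replicates 1 to 5 of OIS-shCEBPB and at 31.4, 34.3, 38.9, 28.4 and 29.8 CPM in those of OIS-shCEBPB-shp53. Both ranges lie far below the 259 to 329 CPM of senescent cells with both empty vectors (OIS-v-v, n = 5), so the transcript was depleted in both groups, including the one whose label lacks the hairpin letters. The difference in CEBPB between the 2 groups was -0.12 ± 0.06 (SE, edgeR adjusted p = 0.136) on the log2 scale, by edgeR's quasi-likelihood test with the replicate number as a block and Benjamini-Hochberg adjustment over 13418 genes. The other adjusted p values of this comparison come from the same test unless another fit is named. The difference in CEBPB did not pass the threshold of an adjusted p under 0.05. It did pass without replicate 5, at -0.19 with an edgeR adjusted p of 0.0113, and in replicates 1 to 3 alone, at -0.1998 with an edgeR adjusted p of 0.00246. HRAS, to which reads of the RAS transgene can also map, fell from 831 ± 43.3 to 662 ± 22.7 CPM (mean ± SD, n = 5), a log2 change of -0.33 ± 0.04 (SE, edgeR adjusted p = 1.62e-05), and the 2 groups did not overlap.

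Library totals in the 2 groups ran from 15169741 to 22500697 assigned reads, with medians of 20585468 in OIS-shCEBPB and 18081635 in OIS-shCEBPB-shp53. Replicates 1 to 3 and replicates 4 and 5 formed 2 sets in both groups, which the labels do not name, and deviations from the group mean correlated at 0.37 to 0.51 between libraries of the same number and at -0.44 to -0.36 across the 2 sets. Medians of the main lists are therefore also given for replicates 1 to 3 alone and for replicates 4 and 5 alone, as are changes whose call was lost in either set. The labelled cell type held up, since all 9 fibroblast markers were present in both groups, their summed level being 19634 to 20819 CPM and 19169 to 23029.7 CPM. Of 8 epithelial markers, 5 were at 0 in each group and the list summed to 3.69 to 5.29 CPM in OIS-shCEBPB and 3.81 to 5.54 CPM with shp53. Of 7 immune markers the summed level stayed between 1.02 and 2.05 CPM over the 10 libraries. Endothelial markers are taken up below, with TIE1.

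**Figure D1:**
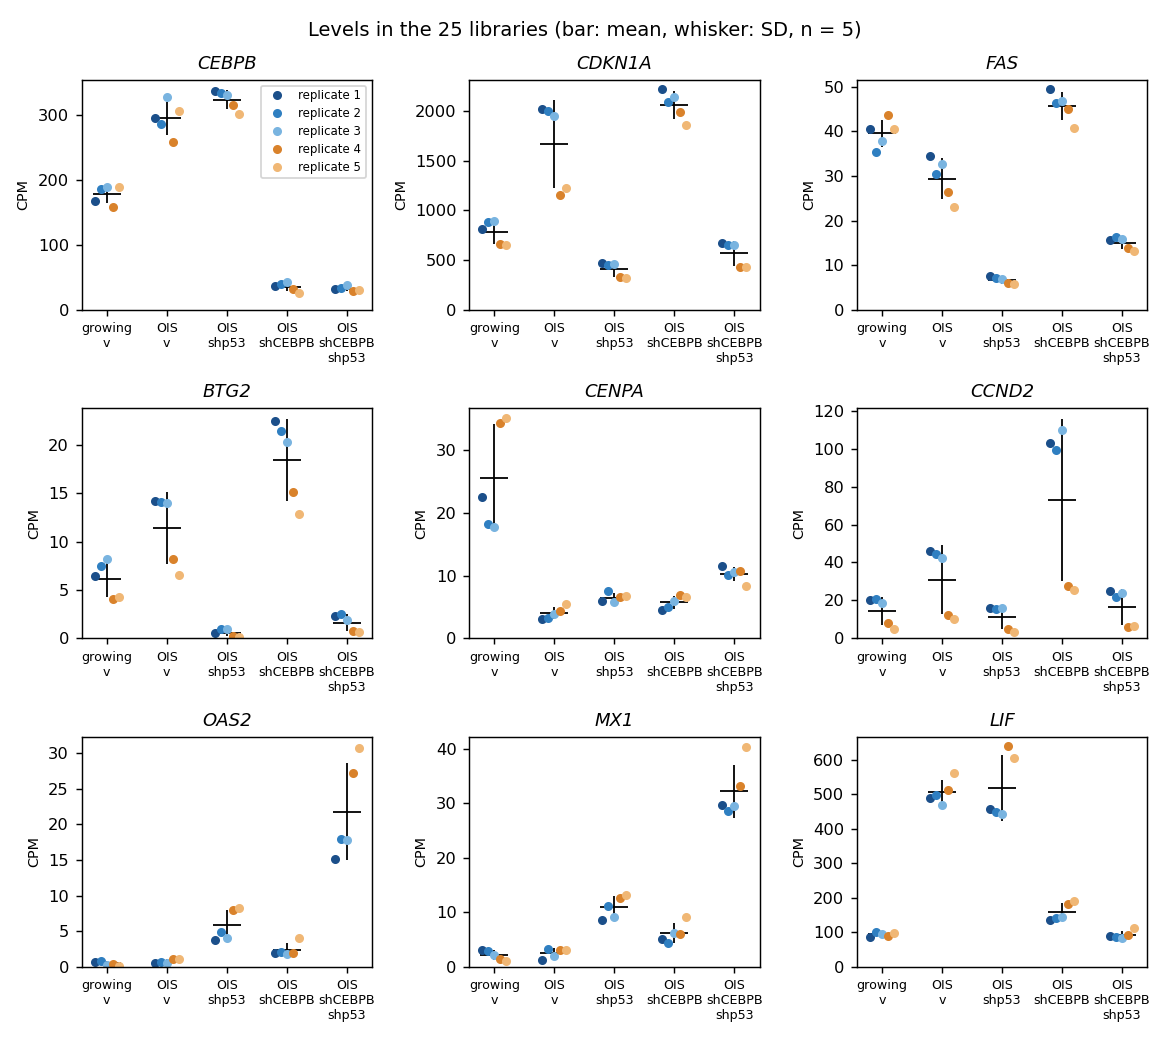
Level of 9 genes in CPM (counts scaled to library size, linear axis from 0) in all 25 libraries of the experiment, coloured by replicate number, with the mean as a bar and the SD as a whisker for each group of 5. CDKN1A and FAS are low in both groups with the p53 hairpin, CEBPB is low in both groups with the C/EBPβ hairpin, and OAS2 and MX1 are highest in the cells with both.

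p53 knock-down in the C/EBPβ-depleted cells changed 4425 of 13418 genes tested, of which 2264 (16.9%) rose and 2161 (16.1%) fell. Scaling by library size alone moved that split to 62.1% higher, from 51.2%, and moved the median of all genes by 0.03 on the log2 scale. Most changes were small: the median size among called genes was 0.27 on the log2 scale, and 93 genes rose and 101 fell by at least 2-fold. By levels alone, every shp53 library lay above every other library for 876 genes (6.53%) and below for 731 genes (5.45%). Most genes of the p53 target list fell, most of the interferon-stimulated list rose and accounted for many of the largest rises, and genes of cell division rose by smaller amounts.

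A list of 44 established p53 target genes was tested whole. In it 38 genes fell, against 16.1% of all genes, 1 rose and 5 did not pass the threshold, with a median log2 change of -0.65 where the median of all genes was 0.00. All 38 that fell were lower in every shp53 library than in any other, a separation seen in 5.45% of all genes. In replicates 4 and 5 alone 40 members were called lower, and under each of the other alternatives 38 were. The summed level of the 44 genes was 4864 to 5516 CPM in OIS-shCEBPB and 2118 to 2758 CPM with shp53, below the 3640.3 to 5238 CPM of OIS-v-v and overlapping the 2383 to 2913 CPM of growing cells with both empty vectors (Grow-v-v, n = 5). OIS-v-v had the same 6 days in 100 nM 4OHT. The titles of Grow-v-v share the cell prefix of the OIS groups and give day 0, with no 4OHT listed. The study describes its growing condition as proliferating cells without 4OHT.

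Among the growth arrest genes, CDKN1A (ENSG00000124762, 6:36644305-36655116, plus strand, hg19) stood at 2219.6, 2091, 2138, 1989.8 and 1859 CPM in OIS-shCEBPB and at 674, 653, 654, 429.98 and 426 CPM with shp53. Every shp53 library was below every OIS-shCEBPB library, while the range overlapped that of growing cells (mean ± SD 780.3 ± 115 CPM), and the change was -1.89 ± 0.07 (SE, edgeR adjusted p = 7.69e-11). BTG2, an antiproliferative protein that slows entry into S phase, was at 22.5, 21.5, 20.3, 15.2 and 12.9 CPM and fell to 2.28, 2.47, 1.92, 0.795 and 0.596 CPM. Its log2 change of -3.53 ± 0.14 (SE, edgeR adjusted p = 1.22e-10) was the largest on the list, and replicates 4 and 5 were the lowest in both groups. SESN1 and SESN2, which restrain mTORC1 signalling under stress, changed by -1.003 ± 0.12 and -0.63 ± 0.09, with edgeR adjusted p of 1.81e-05 and 8.39e-05. GADD45A, a stress protein that slows the G2 to M transition, changed by -0.62 ± 0.04 (SE, edgeR adjusted p = 1.38e-07).

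PLK2, a kinase of the polo family, went the other way, with 178, 179, 171, 148 and 141 CPM in OIS-shCEBPB against 225, 222, 212, 167 and 155 CPM with shp53. It was higher in each of the 5 pairs although the ranges overlapped, and the rise of 0.25 ± 0.04 (SE, edgeR adjusted p = 0.000127) was not called when the replicate block was left out (adjusted p = 0.133) or when all 25 libraries were fitted together (adjusted p = 0.0782).

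The regulators of p53 itself fell in 5 of 6 cases. MDM2, the ubiquitin ligase that degrades p53, was at 98.3, 95.7, 88.9, 96.3 and 101 CPM and with shp53 at 51.7, 55.8, 54.996, 55.5 and 55.4 CPM, a narrow and separate band. Its change was -0.81 ± 0.04 (SE, edgeR adjusted p = 3e-09). ZMAT3, an RNA-binding protein, changed by -1.13 ± 0.05 (SE, edgeR adjusted p = 1.5e-09), and CCNG1 and PPM1D changed by -0.66 and -0.38. SUSD6 had a log2 value of 0.11 ± 0.04 (SE, edgeR adjusted p = 0.0658), and was called higher in replicates 1 to 3 alone, at 0.16 (edgeR adjusted p = 0.00246).

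Of 12 apoptosis genes 10 fell. FAS, the death receptor for FAS ligand, was at 49.4, 46.4, 46.8, 44.96 and 40.9 CPM in OIS-shCEBPB and 15.5, 16.2, 15.9, 13.8 and 13.1 CPM with shp53, with no overlap and a change of -1.62 ± 0.05 (SE, edgeR adjusted p = 2.57e-11). TNFRSF10B, a receptor for the death ligand TRAIL, changed by -0.74 ± 0.04 (SE, edgeR adjusted p = 2.82e-09), EDA2R by -1.18 ± 0.06, the BH3-only gene BBC3 by -0.82 ± 0.09 and BAX, which permeabilises mitochondria, by -0.39 ± 0.04. PMAIP1, the other BH3-only gene of the list, had -0.07 ± 0.06 (SE, edgeR adjusted p = 0.425) and APAF1, the core of the apoptosome, 0.08 ± 0.05 (SE, edgeR adjusted p = 0.245). PMAIP1 was called lower in replicates 4 and 5 alone, at -0.32 (edgeR adjusted p = 3.78e-06), and had 0.084 in replicates 1 to 3 (edgeR adjusted p = 0.124). All 4 genes for DNA repair and nucleotide supply fell. RRM2B, a ribonucleotide reductase subunit, changed by -1.15 ± 0.06, DDB2, which recognises ultraviolet damage, by -0.92 ± 0.08, POLH by -0.52 ± 0.06 and XPC by -0.39 ± 0.04.

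In the remaining 15 targets 13 fell. GDF15, a secreted stress cytokine, dropped from 476, 466, 479.9, 435 and 403 CPM to 136, 131, 133, 59.04 and 60.8 CPM, lowest in replicates 4 and 5, and changed by -2.196 ± 0.13 (SE, edgeR adjusted p = 1.85e-08). CYFIP2, a regulator of actin, held 22.3 to 25.1 CPM in OIS-shCEBPB and 1.91 to 4.51 CPM with shp53, a change of -2.98 ± 0.13 (SE, edgeR adjusted p = 5.93e-10). FDXR, which passes electrons to mitochondrial cytochromes, changed by -1.78 ± 0.08, SPATA18 by -1.84 ± 0.14 and the antiviral TRIM22 by -1.72 ± 0.05. ABHD4 had -0.15 ± 0.06 (SE, edgeR adjusted p = 0.0763) and IER5 -0.06 ± 0.04 (SE, edgeR adjusted p = 0.263), and neither passed the threshold. ABHD4 was called lower in replicates 4 and 5 alone, at -0.28 (edgeR adjusted p = 0.00801).

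**Figure D2:**
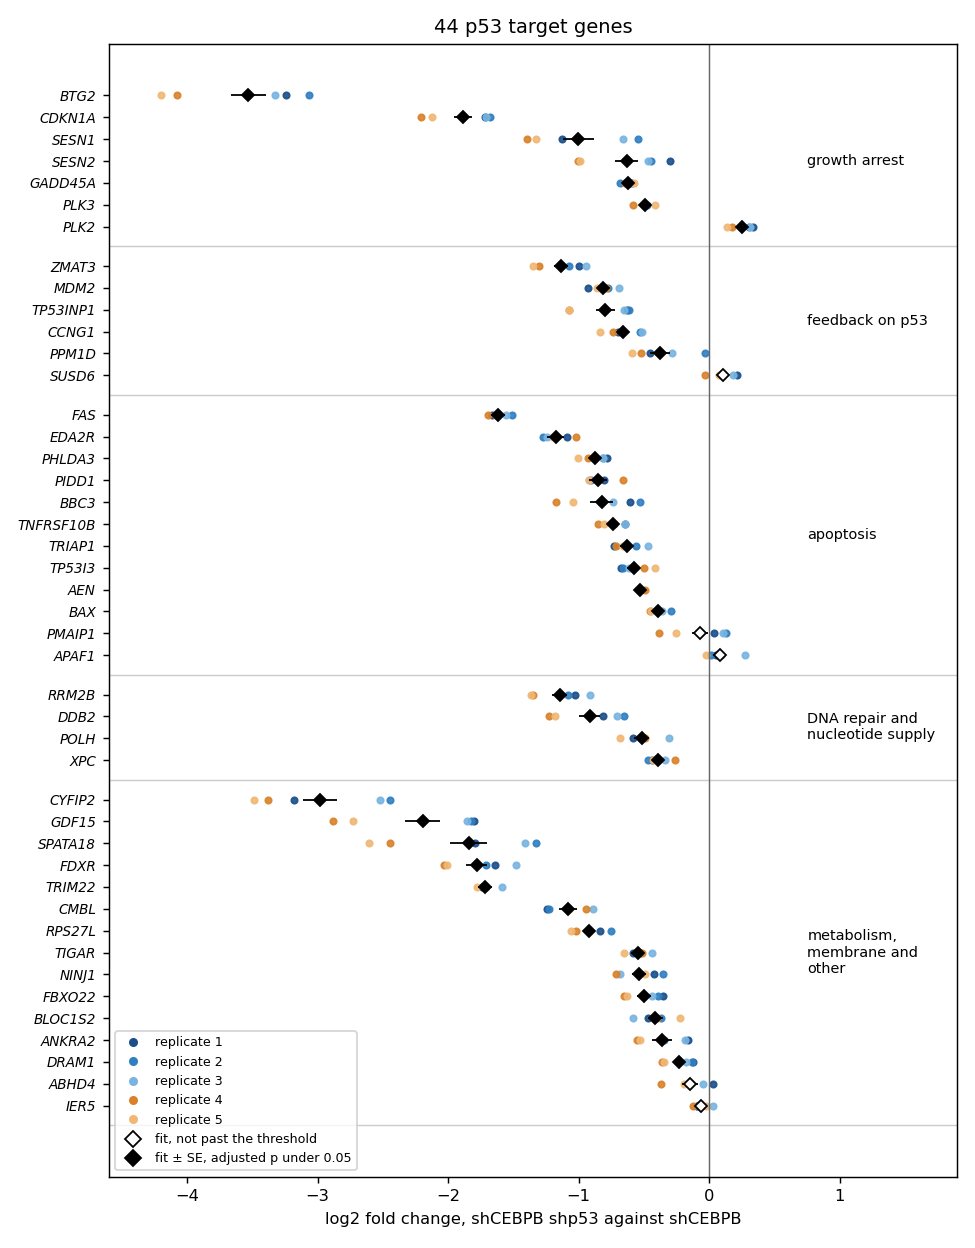
Log2 fold change of 44 p53 target genes, OIS-shCEBPB-shp53 against OIS-shCEBPB, grouped by role: small points are the ratios of libraries with the same number, and diamonds are the edgeR fit with its SE, filled where the adjusted p was under 0.05. BTG2 at -3.53 and CYFIP2 at -2.98 lie farthest left, PLK2 at 0.25 is the filled diamond right of 0, and for most of the larger falls replicates 4 and 5 lie left of replicates 1 to 3.

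The 10 largest falls were taken from called genes with a symbol, a mean of at least 1 CPM and no overlap between the groups. They were CYP3A7, PTCHD4, SULF2, BTG2, CYFIP2, PURPL, TNFSF9, GASK1B, TNFRSF10C and LYNX1. CYP3A7, a cytochrome P450 of fetal liver, had 5.76, 6.29, 6.32, 2.098 and 1.82 CPM and with shp53 0.425, 0.322, 0.117, 0.053 and 0.119 CPM, with the higher values in replicates 1 to 3 of OIS-shCEBPB. Its change was -4.38 ± 0.24 (SE, edgeR adjusted p = 6.82e-09). PTCHD4, a membrane protein of the patched family, had 4.73, 5.14, 3.88, 2.62 and 2.78 CPM against 0.265, 0.268, 0.292, 0.212 and 0.0596 CPM, and changed by -4.08 ± 0.22 (SE, edgeR adjusted p = 7.08e-09). In OIS-v-v its level was 1.28 ± 0.8001 CPM and in growing cells 2.14 ± 1.305 CPM (mean ± SD, n = 5).

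SULF2, a sulfatase that edits heparan sulfate, fell from 2.33 to 9.26 CPM to 0 to 0.902 CPM, a log2 change of -4.02 ± 0.23 (SE, edgeR adjusted p = 1.03e-08). TNFSF9, the ligand of the costimulatory receptor 4-1BB, went from 4.98, 6.01, 4.31, 5.82 and 6.13 CPM to 0.902, 0.5901, 0.933, 0.954 and 0.536 CPM, a log2 change of -2.78 ± 0.18 (SE, edgeR adjusted p = 5.12e-08). PURPL, a long noncoding RNA, went from 2.46 to 3.404 CPM to 0.215 to 0.467 CPM, and TNFRSF10C, a decoy receptor for TRAIL, from 6.98 to 9.22 to 0.848 to 2.0995 CPM. For all 10 genes the groups did not overlap, as their choice required. A further gene, ENSG00000006075, fell more than any of these, with a log2 change of -4.77 ± 0.18 (SE, edgeR adjusted p = 8.83e-11), but the tables used here pair its identifier with no symbol.

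PTCHD4 is shown with sequence because it was the only gene among the 95 that fell at least 2-fold and had a start in the GENCODE annotation with an unbroken pair of p53 half-sites in the 3000 bases before that start. The pattern searched was the p53 response element, made of 2 half-sites with no gap and no mismatch, which is its own reverse complement. The site lies 20 bases before the start of the canonical transcript, at chr6:48078934-48078953 (GRCh37, minus strand), which is upstream of the start in the annotation used for counting, and capitals mark the 4-base core of each half-site:
PTCHD4: aggCTTGcccagaCTTGccc
In the same windows 8 of 13075 genes tested held such a site (0.0612%), as did 1 of the 43 p53 targets with a start, PLK2, at 2207 bases. None of the 93 genes that rose at least 2-fold held one. A single half-site within 250 bases before the start was found in 6 of 36 p53 targets with a RefSeq entry (16.7%), and in 6.46% of 10358 genes tested. It was not particular to the targets, being in 21.4% of 14 interferon-stimulated, 15.6% of 32 S phase and 11.1% of 45 G2 and M genes. The windows of BTG2 (1 start) and CYFIP2 (2 starts) held none, which says only that these exact letters are not there.

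Interferon-stimulated genes had the highest median change of the lists. They are normally switched on when interferon reaches its receptor or when viral RNA or DNA is sensed, and many encode antiviral proteins. Of 20 genes on the list 19 were tested and 18 rose, against 16.9% of all genes, with a median log2 change of 1.43, and 17 of them had no overlap between the groups, against 6.53%. Summed over the list the level was 311 to 398 CPM in OIS-shCEBPB and 677 to 847 CPM with shp53, while OIS-v-v had 306 to 319 CPM and growing cells 221 to 308 CPM. The list was drawn up with earlier results of these data in view. It contributed 6 of the 10 largest rises, which were chosen under the same conditions as the 10 largest falls above. MX2, OASL and HERC5, which are antiviral genes outside the list, were also among these 10.

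OAS2, an enzyme that senses double-stranded RNA and makes the activator of RNase L, was at 1.94, 2.02, 1.83, 1.95 and 4.09 CPM in OIS-shCEBPB and at 15.2, 17.9, 17.8, 27.3 and 30.8 CPM with shp53. Its rise of 3.22 ± 0.11 (SE, edgeR adjusted p = 3.65e-11) was the largest among the named genes, and replicate 5 of OIS-shCEBPB stood above the other 4 of its group. OAS1, of the same family, rose from 0.647, 0.505, 1.31, 1.001 and 1.93 CPM to 5.41, 4.94, 5.25, 11.2 and 13.8 CPM, a log2 change of 2.89 ± 0.17 (SE, edgeR adjusted p = 1.95e-08). MX1, a GTPase that blocks viral nucleocapsids, rose from 5.05, 4.405, 6.101, 5.96 and 9.19 CPM to 29.6, 28.5, 29.4, 33.1 and 40.2 CPM.

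The change of MX1 was 2.401 ± 0.08 (SE, edgeR adjusted p = 2.57e-11). IFI27, a mitochondrial membrane protein, rose from 4.08, 4.96, 4.36, 3.91 and 7.38 CPM to 27.9, 25.6, 32.7, 35.99 and 46.8 CPM, a log2 change of 2.77 ± 0.09 (SE, edgeR adjusted p = 2.7e-11). IFI6, of the same family, rose from 28.3, 25.8, 33.5, 30.2 and 43.1 CPM to 139, 132, 157, 138 and 175 CPM, a log2 change of 2.21 ± 0.05 (SE, edgeR adjusted p = 2.7e-13). In each of these genes the 5 shp53 libraries were all above the 5 others, a condition for entry among the largest rises. Replicate 5 was the highest of both groups.

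The transcription factors of the interferon pathway moved less. IRF7, which induces interferon genes, rose by 0.58 ± 0.08 (SE, edgeR adjusted p = 8.47e-05). IRF9, a DNA-binding subunit of the factor that interferon activates, had 1.002 to 1.49 CPM and 0.816 to 1.59 CPM and a log2 value of -0.09 ± 0.21 (SE, edgeR adjusted p = 0.784), and 1838 of its 3567 exon bases overlap another gene on the same strand. The RNA sensors IFIH1 and RIGI rose by 1.302 ± 0.12 and 0.46 ± 0.05, and the ubiquitin-like modifier ISG15 by 0.74 ± 0.05 (SE, edgeR adjusted p = 8.62e-08). IRF7, IFIH1 and RIGI, and IFIT1 below, were named after their values were seen. The list median was 1.53 in replicates 1 to 3 and 1.34 in replicates 4 and 5, and 18 members were called higher in each.

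Promoter windows of these genes are shown for the element named after this class of genes. Its share in the list follows from the choice of such genes and does not depend on the changes measured here. The core of the interferon-stimulated response element, TTTC followed after any 2 bases by a second TTTC, was searched on both strands in the 250 bases before each RefSeq start (GRCh38.p14), and it was held by 11 of the 14 list genes tested that have a window and by 3.33% of 10358 genes tested. Motif letters are in capitals, on either strand, in stretches of IFIT1 (136 to 74 bases before the start, chr10:89392487-89392549, plus strand) and of IFI6 (176 to 64 bases before the start, chr1:27672256-27672368, minus strand):
IFIT1: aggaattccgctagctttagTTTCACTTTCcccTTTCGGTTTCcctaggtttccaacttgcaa
IFI6: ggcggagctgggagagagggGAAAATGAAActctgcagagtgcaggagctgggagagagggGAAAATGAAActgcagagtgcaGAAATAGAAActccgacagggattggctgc
IFIT1, which rose by 1.87 ± 0.11, holds 2 matches and IFI6 holds 3. OAS1, which rose by 2.89, holds none in its single window, and MX1 holds 1 in only the third of its 3 windows. Only a spacing of 2 bases was searched, so a window without a match may still hold the element in another form.

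APOE, the lipid carrier, was the tenth of the largest rises and the only one of them that is not an antiviral gene. It stood at 3.24, 3.35, 2.702, 4.05 and 3.18 CPM in OIS-shCEBPB and at 18.5, 20.3, 17.96, 9.27 and 6.97 CPM with shp53, with the smaller rise in replicates 4 and 5, and changed by 2.095 ± 0.19 (SE, edgeR adjusted p = 1.85e-06).

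Cell cycle genes rose together by small amounts. Of 42 S phase genes tested 32 rose and 2 fell (median 0.38), of 54 genes of G2 and M phase 51 rose and none fell (median 0.57), and of 18 genes of homologous recombination and the Fanconi pathway 16 rose and none fell (median 0.56), against 16.9% of all genes higher and 16.1% lower. BLM belongs to the S phase and the recombination lists and counts in both. With DESeq2 the counts higher in S phase and in G2 and M phase were 30 and 47. Groups did not overlap for 13 of the S phase genes, 38 of the G2 and M genes and 6 of the recombination genes, where 6.53% of all genes were separated in this direction. In bulk RNA, more cells in a phase and more RNA per cell cannot be told apart.

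CENPA, the histone variant that marks centromeres, had 4.47, 4.96, 5.88, 6.82 and 6.64 CPM in OIS-shCEBPB and 11.6, 10.1, 10.5, 10.7 and 8.401 CPM with shp53. The groups were separate, but all 10 libraries stayed below the 17.8 to 35.1 CPM of the growing cells, and the change was 0.83 ± 0.12 (SE, edgeR adjusted p = 8.47e-05). CDC20, the activator of the anaphase-promoting complex, rose from 32.5, 33.8, 40.2, 56.03 and 51.4 CPM to 71.1, 75.9, 74.7, 77.3 and 68.04 CPM, a log2 change of 0.798 ± 0.09 (SE, edgeR adjusted p = 1.38e-05), where growing cells had 121 to 331 CPM. BLM, the helicase of Bloom syndrome, rose from 4.53, 4.405, 4.18, 6.34 and 8.23 CPM to 6.79, 9.17, 9.91, 12.9 and 9.53 CPM, a log2 change of 0.83 ± 0.13 (SE, edgeR adjusted p = 0.000192), with overlapping ranges. RAD51AP1, DTL and CDC45 rose by 0.804 ± 0.09, 0.71 ± 0.09 and 0.67 ± 0.08, and in mitosis BUB1 and NEK2 by 0.77 ± 0.102 and 0.75 ± 0.14. In replicates 4 and 5 alone CENPA, CDC20, BUB1 and DTL had lower values of 0.51, 0.44, 0.38 and 0.44, and NEK2 was at 0.21 and not called (edgeR adjusted p = 0.223), against 1.15 in replicates 1 to 3.

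The size of the rise differed between the replicate sets. In replicates 1 to 3 the S phase and G2 and M medians were 0.51 and 0.81, with 36 and 51 members called higher, while in replicates 4 and 5 they were 0.16 and 0.25, with 16 and 34 called. In OIS-shCEBPB the 54 G2 and M genes summed to 2665 to 3265 CPM, and with shp53 to 3573 to 3815 CPM, in separate ranges. Growing cells had 5743 to 9445 CPM and OIS-v-v 2205 to 2976 CPM, so the shp53 libraries lay between senescent and growing vector cells.

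The 2 S phase genes that fell were TYMS, the thymidylate synthase, and PCNA, the sliding clamp of DNA polymerase. PCNA had 54.2, 50.2, 57.2, 71.6 and 65.9 CPM in OIS-shCEBPB and 48.02, 46.6, 52.8, 46.7 and 47.1 CPM with shp53, a change of -0.303 ± 0.07 (SE, edgeR adjusted p = 0.00289). TYMS had 25.7 to 41.9 CPM and 21.1 to 29.8 CPM and changed by -0.33 ± 0.11 (SE, edgeR adjusted p = 0.034), a call lost with DESeq2 (adjusted p = 0.204), with library sizes alone, without replicates 1, 4 or 5, in the fit of all 25 libraries (adjusted p = 0.182) and without the replicate block (adjusted p = 0.0924). In replicates 1 to 3 TYMS had -0.036 (edgeR adjusted p = 0.692) and in replicates 4 and 5 it had -0.766, and PCNA had -0.14 and -0.55 in the same sets.

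The promoter window of CENPA is given as an example of the cell cycle element TTTGAA, which with TTCGAA was present in 27 of 45 G2 and M genes that have a window, in 4 of 32 S phase genes and in 13.6% of 10358 genes tested. The stretch covers 38 to 1 bases before the start (chr2:26786018-26786055, plus strand, GRCh38.p14, RefSeq), with the element in capitals:
CENPA: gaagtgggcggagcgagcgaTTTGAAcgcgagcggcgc
The window of BLM, the S phase gene with the largest change, held neither form.

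**Figure D3:**
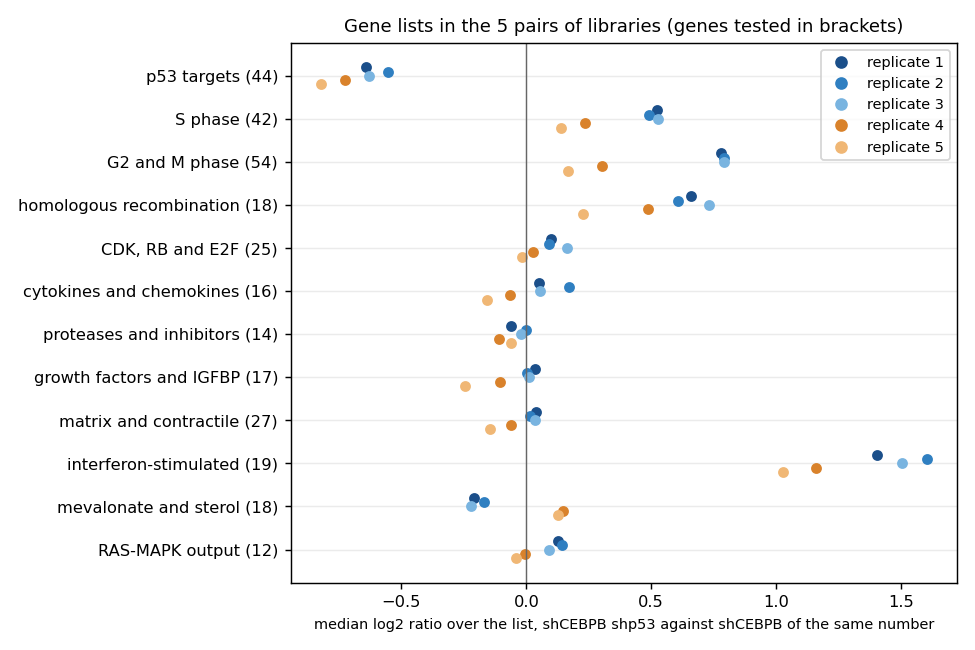
Median log2 ratio over 12 gene lists in the 5 pairs of libraries with the same replicate number, OIS-shCEBPB-shp53 against OIS-shCEBPB. The p53 targets lie below 0 and the interferon-stimulated, S phase, G2 and M phase and recombination lists above 0 in all 5 pairs, and for the cell cycle lists replicates 4 and 5 lie closer to 0 than replicates 1 to 3.

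In the G1 control network, 10 of 25 genes tested rose (40%) and 6 fell (24%), against 16.9% and 16.1% of all genes. CCND2, cyclin D2, fell most, from 103, 99.5, 109.7, 27.7 and 25.2 CPM to 24.99, 21.8, 23.7, 5.72 and 6.49 CPM, a log2 change of -2.14 ± 0.05 (SE, edgeR adjusted p = 1.74e-12). Its level was lower in replicates 4 and 5 than in replicates 1 to 3 within each group, and it fell in all 5 pairs. CDK2, the kinase that p21 inhibits, rose from 34.1, 35.6, 36.4, 52.2 and 55.4 CPM to 55.98, 57.1, 62.3, 71.8 and 67.3 CPM, a log2 change of 0.58 ± 0.06 (SE, edgeR adjusted p = 7.18e-06). CDKN2A, which encodes the inhibitor p16 and the protein ARF, rose from 35.99, 33.1, 36.8, 31.2 and 30.9 CPM to 51.6, 51.5, 52.95, 42.1 and 46.8 CPM, a log2 change of 0.54 ± 0.05 (SE, edgeR adjusted p = 9.1e-07). CDKN1B, which encodes the inhibitor p27, rose by 0.42 ± 0.09 but was not called in replicates 4 and 5 (0.22, edgeR adjusted p = 0.233). CCND1, cyclin D1, changed by -0.33 ± 0.04, a call lost without the replicate block (adjusted p = 0.0675), while CDKN2B had -0.01 ± 0.05 (SE, edgeR adjusted p = 0.858).

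The inflammatory SASP was divided. Of 16 cytokine and chemokine genes tested, 7 rose and 7 fell, against 16.9% and 16.1% of all genes. The list median was -0.04, with 0.10 in replicates 1 to 3 and -0.12 in replicates 4 and 5. LIF, a cytokine of the IL-6 family, had 135, 141, 143, 183 and 190.4 CPM in OIS-shCEBPB and 90.2, 85.7, 84.04, 91.95 and 114 CPM with shp53, in separate ranges, and changed by -0.76 ± 0.05 (SE, edgeR adjusted p = 3.58e-08). The chemokine CCL2 fell from 32.4 to 43.1 CPM to 20.99 to 25.4 CPM, a log2 change of -0.69 ± 0.06 (SE, edgeR adjusted p = 5.17e-07). IL1B fell from 744, 728, 803, 1109 and 1119.9 CPM to 633, 623, 627, 719 and 777 CPM, a log2 change of -0.396 ± 0.05 (SE, edgeR adjusted p = 3.89e-05).

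IL6 fell from 664 to 1029 CPM to 571 to 782 CPM, a log2 change of -0.2999 ± 0.04 (SE, edgeR adjusted p = 3.39e-05), a call lost without the replicate block (adjusted p = 0.154). CCL20, near the limit of detection at 0.238 to 2.202 CPM against 0.265 to 0.875 CPM, changed by -1.41 ± 0.26 (SE, edgeR adjusted p = 0.000863), and this call was also lost without the block (adjusted p = 0.082). CXCL1 and CXCL6, both ligands of neutrophil receptors, rose by 0.34 ± 0.03 and 0.52 ± 0.09. CXCL8 had 1267 to 1867 CPM and 1274 to 1729.7 CPM and a log2 value of -0.04 ± 0.04 (SE, edgeR adjusted p = 0.445), where OIS-v-v had 5212 to 6065 CPM. Without the replicate block, 3 members rose and 4 fell.

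Among proteases and their inhibitors, 3 of 14 rose (21.4%) and 6 fell (42.9%), against 16.9% and 16.1% of all genes. MMP10, stromelysin-2, rose from 24.5, 21.3, 24.6, 33.7 and 32.3 CPM to 36.7, 37.2, 36.04, 60.1 and 59.8 CPM, a log2 change of 0.74 ± 0.06 (SE, edgeR adjusted p = 3.8e-07). MMP3, stromelysin-1, went the other way, from 1457, 1392, 1532, 1119.7 and 1128 CPM to 1003, 1014, 1009, 770.4 and 828 CPM, a log2 change of -0.52 ± 0.03 (SE, edgeR adjusted p = 7.51e-08). The metalloproteinase inhibitor TIMP1 changed by -0.43 ± 0.04.

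Of 17 growth factors and IGF-binding proteins, 4 rose (23.5%) and 8 fell (47.1%), against 16.9% and 16.1% of all genes. HBEGF, a ligand of the EGF receptor, fell from 92.4, 93.3, 98.1, 68.04 and 67.5 CPM to 43.9, 46.1, 48.99, 38.7 and 37.5 CPM, a log2 change of -0.96 ± 0.05 (SE, edgeR adjusted p = 1.86e-09). IGFBP5 fell from 1405 to 1875 CPM to 879 to 1083 CPM, a log2 change of -0.77 ± 0.04 (SE, edgeR adjusted p = 1.11e-09). FGF2 changed by -0.37 ± 0.04 and IGFBP3 by -0.299 ± 0.03, whereas IGFBP2 rose by 0.603 ± 0.17 and the KIT ligand KITLG by 0.27 ± 0.06. The calls of IGFBP3 and KITLG were lost without the replicate block (adjusted p = 0.256 and 0.0854) and in the fit of all 25 libraries (0.598 and 0.0539). That of IGFBP2 was lost with DESeq2 (adjusted p = 0.104), without replicate 1 (0.0825) and in replicates 4 and 5 (0.13), and KITLG had 0.14 in replicates 1 to 3 and 0.46 in replicates 4 and 5.

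Matrix and contractile genes gave 6 rises (22.2%) and 9 falls (33.3%) among 27, against 16.9% and 16.1% of all genes. All 4 contractile genes fell. ACTA2, smooth muscle actin, went from 159.6, 149, 151, 142 and 128 CPM to 90.8, 93.5, 101, 87.2 and 74.5 CPM, a log2 change of -0.71 ± 0.04 (SE, edgeR adjusted p = 7.78e-09), and 770 of its 2935 exon bases overlap a gene on the other strand. TAGLN, transgelin, went from 339, 327, 375, 236 and 208 CPM to 203, 207, 225, 145 and 126 CPM, a log2 change of -0.71 ± 0.03 (SE, edgeR adjusted p = 8.57e-10), with overlapping ranges. ELN, tropoelastin, fell from 21.3 to 41.7 CPM to 13.1 to 21.1 CPM, a log2 change of -0.83 ± 0.07 (SE, edgeR adjusted p = 5.02e-07). None of 8 collagens was called lower, although COL1A2 was at -0.28 in replicates 4 and 5 alone (edgeR adjusted p = 1.4e-06) and at 0.0903 in replicates 1 to 3. COL3A1 rose by 0.47 ± 0.07, with 0.67 in replicates 1 to 3 and 0.175 in replicates 4 and 5, and was not called in the fit of all 25 libraries (adjusted p = 0.0785).

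A further 3 lists are set beside the 16.9% of all genes that rose and the 16.1% that fell. Of 18 mevalonate and sterol genes 1 rose (INSIG1, 0.28 ± 0.06) and 1 fell (SC5D, -0.21 ± 0.06). In the fit of all 25 libraries neither was called (adjusted p = 0.142 and 0.0629), and SC5D was also not called with DESeq2 (0.0517), without the replicate block (0.343), without replicate 3 (0.0513) or in replicates 4 and 5 (0.272). The median ratio of that list was between -0.22 and -0.17 in replicates 1 to 3 and at 0.15 and 0.13 in replicates 4 and 5. Of 12 output genes of RAS-MAPK signalling 5 rose and 2 fell, with ETV4 at 0.49 ± 0.04 and the phosphatase DUSP4 at -0.397 ± 0.04, a call lost without the replicate block (adjusted p = 0.279). None of the 4 C/EBP family genes tested passed the threshold, with log2 values from -0.12 to 0.06.

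TIE1, a receptor named as an endothelial marker, rose from 4.402, 4.82, 4.18, 7.1999 and 6.13 CPM to 11.5, 9.82, 10.9, 13.1 and 15.7 CPM, a log2 change of 1.19 ± 0.10 (SE, edgeR adjusted p = 6.24e-07). The 5 endothelial markers in the table summed to 6.54 to 9.01 CPM and 13.6 to 17.9 CPM, most of it TIE1. The other 3 that were tested, CDH5, VWF and KDR, had log2 values of -0.19, 0.32 and 0.49 and were not called. CLDN5, a tight junction protein and the fifth marker, was too low to be tested, at 0.453, 0.413, 0.349, 0.191 and 0.0567 CPM in OIS-shCEBPB and 1.27, 1.502, 1.46, 0.265 and 0.417 CPM with shp53, higher in all 5 pairs with overlapping ranges. A part of endothelial cells in the result was not tested.

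The same hairpin was also tested without C/EBPβ depletion, as OIS-shp53 (pSuper v with pMSCV miR p53) against OIS-v-v, on 10 other libraries. There 1610 of 13378 genes rose (12%) and 1427 fell (10.7%). These 3037 calls became 1538 without replicate 1, 1921 with DESeq2, 1518 in the fit of all 25 libraries and 594 without the replicate block. Of the 13144 genes tested in both, 2050 were called in both, 2028 of them in the same direction and 22 in opposite directions, which is 46.4% of the calls with shCEBPB and 67.6% of those without. Across these genes the log2 changes correlated at r = 0.74, a description over genes, which are not independent replicates.

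The p53 targets had a median log2 change of -0.71 without shCEBPB, with 39 of 44 lower. The median of the interferon-stimulated list was 1.12, with 15 higher and 1 lower, and the G2 and M median was 0.39, with 33 of 54 higher and 1 lower. The S phase median was 0.22, with 11 of 42 higher. None of the S phase or G2 and M genes passed the test of the difference between the 2 effects.

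The test of the difference, fitted by edgeR on the 20 libraries with the replicate block and adjusted over 13873 genes, called 32 of 13873 genes as more positive with shCEBPB (0.231%) and 72 as more negative (0.519%). All of these values are the change with shCEBPB minus the change without. Without the replicate block 6 genes were called, and leaving out replicate 1, 2 or 3 left 29, 34 or 42. The count therefore depends on the block and on which replicates are included. Whether the block acts through the replicate number or through the 2 replicate sets was not tested. Of the 19 genes named for such a difference all 19 were called with DESeq2, with upper-quartile factors and with library sizes alone, but only 2 were called without the block, ODC1 and TRIM22, and 5 were called whichever replicate was left out (CCND2, LIF, MMP3, ODC1 and TRIM22).

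GASK1B, a secreted kinase-like protein, had the most negative difference among named genes. It had 4.34, 4.59, 3.27, 4.72 and 5.67 CPM in OIS-shCEBPB and 0.902, 0.966, 0.467, 0.477 and 0.715 CPM with shp53, against 1.65 ± 0.2902 CPM in OIS-v-v and 0.771 ± 0.216 CPM in OIS-shp53. The log2 changes were -2.67 ± 0.18 and -1.13 ± 0.23, with a difference of -1.53 ± 0.29 (SE, edgeR adjusted p = 0.00916), and 1040 of its 7692 exon bases overlap a gene on the other strand. This difference was not called without replicate 2, 4 or 5 (adjusted p = 0.0531 to 0.0834), without the block (0.108) or in replicates 1 to 3 (-1.04, adjusted p = 0.108). LIF changed by -0.76 with shCEBPB while its value without was 0.02 ± 0.06, a difference of -0.78 ± 0.08 (SE, edgeR adjusted p = 3.97e-05), and its levels without shCEBPB were 507 ± 35.1 CPM and 519 ± 95.8 CPM. MMP3 had -0.52 ± 0.03 against 0.01 ± 0.05 and a difference of -0.53 ± 0.06 (SE, edgeR adjusted p = 3.97e-05). Without the block the adjusted p was 0.108 for LIF and 0.836 for MMP3.

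FGF7, a fibroblast growth factor for epithelia, rose by 0.77 ± 0.13 without shCEBPB and had -0.41 ± 0.18 with it, which was not called, and the difference was -1.195 ± 0.21 (SE, edgeR adjusted p = 0.00592). Its levels were low in senescent cells, 1.49, 1.28, 1.6995, 1.86 and 2.38 CPM in OIS-shCEBPB and 1.38, 1.18, 1.34, 1.38 and 1.19 CPM with shp53. SLC7A14 rose in both, by 0.67 ± 0.102 with shCEBPB (not called without the block, adjusted p = 0.265) and 2.04 ± 0.21 without, from 11.6 ± 6.04 CPM and 0.632 ± 0.452 CPM. LCE1F changed by -1.38 ± 0.17 with shCEBPB, from 1.42 to 2.96 CPM to 0.477 to 1.18 CPM, and had -0.09 ± 0.13 without. BEAN1 moved in opposite directions, -0.76 ± 0.15 and 0.66 ± 0.15, although the first call was lost without the replicate block (adjusted p = 0.359) and in replicates 4 and 5 (0.292). The differences of FGF7, SLC7A14, LCE1F and BEAN1 were not called without the block (adjusted p = 0.136, 0.999, 0.136 and 0.999) or without replicate 1 (0.0566, 0.0663, 0.0764 and 0.072). That of LCE1F was also not called without replicate 2, that of SLC7A14 not without replicates 2 or 3, and those of SLC7A14, LCE1F and BEAN1 not in replicates 4 and 5.

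On the positive side, TRIM22 fell less with shCEBPB (-1.72 ± 0.05) than without (-2.61 ± 0.102), a difference of 0.89 ± 0.12 (SE, edgeR adjusted p = 0.000426). With shp53 it kept 13.2, 12.6, 13.5, 12.9 and 11.9 CPM in the C/EBPβ-depleted cells and 3.32 ± 0.739 CPM otherwise. FAS and BAX also had less negative changes, by 0.52 ± 0.09 and 0.24 ± 0.05, and these 3 were the p53 targets that passed this test. FAS was not called without replicate 3 (adjusted p = 0.0506), without the block (0.45) or in replicates 4 and 5 (0.176). BAX was not called without replicate 1, 2, 3 or 5 (adjusted p = 0.0522 to 0.172), without the block (0.245) or in replicates 4 and 5 (0.269), and TRIM22 was not called in replicates 4 and 5 (0.0598). ODC1, the first enzyme of polyamine synthesis, rose from 369.8, 359, 362, 394 and 409 CPM to 502, 503, 527, 509.96 and 486 CPM with shCEBPB but fell without it, from 624 ± 85.99 to 528 ± 22.7 CPM, a difference of 0.66 ± 0.07 (SE, edgeR adjusted p = 4.59e-05). IFI6 and ISG15 rose by 0.795 ± 0.17 and 0.53 ± 0.09 more with shCEBPB, the only interferon-stimulated genes of the list that passed. Neither was called without the block (adjusted p = 0.526 for both) or without replicate 1 (0.26 and 0.0566). IFI6 was also not called without replicate 2 or 3 (0.199 and 0.216), and its difference was 0.049 in replicates 4 and 5 (adjusted p = 0.899) against 1.25 in replicates 1 to 3.

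**Figure D4:**
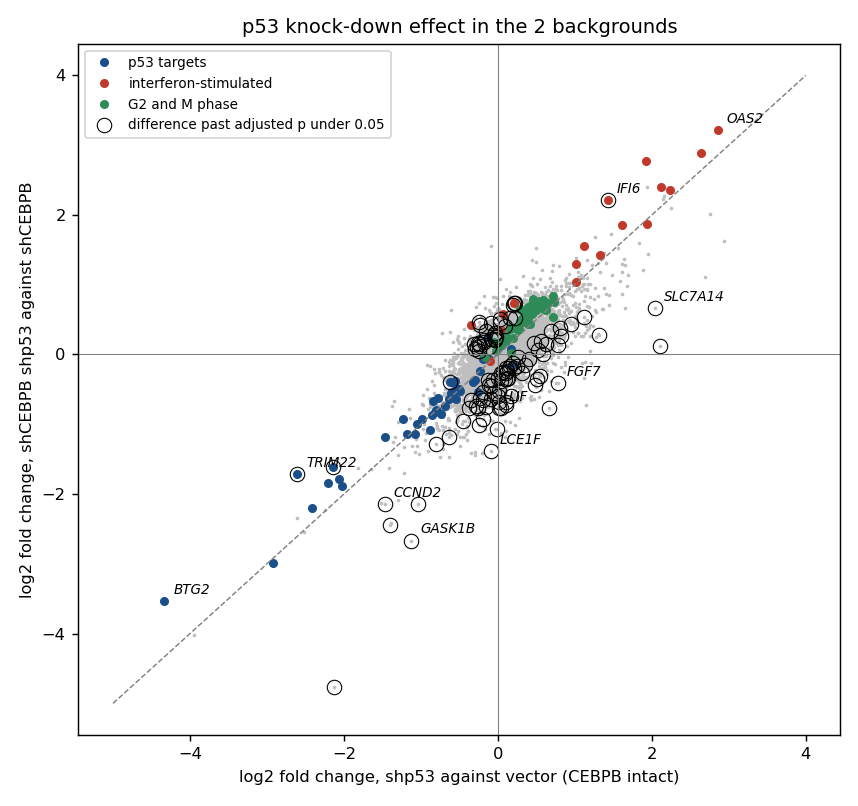
Log2 fold change of p53 knock-down without the C/EBPβ hairpin (x) and with it (y) for 13144 genes tested in both, with 3 gene lists in colour, a dashed line of equality and rings around the 104 genes whose difference passed an adjusted p under 0.05. Coloured genes lie along the line, and 72 of the rings are below it, GASK1B among them, while TRIM22 and IFI6 are above it.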

How the data were processed

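RNA was sequenced from stranded libraries, and the authors aligned the reads with STAR to hg19 and counted them per GENCODE gene with featureCounts. The deposited values are raw counts of reads per gene, in a table of 25 libraries, 5 in each of 5 groups, and the strand setting of the counting is not given in the sources used here. Groups were taken from the sample titles, 5 libraries each, and the counts were used as deposited. A second deposited table was read for gene coordinates only, and its listed starts were raised by 1, after which 94.9% of 309638 exon starts matched the GENCODE annotation of the same build. Symbols were found for 42662 of 44503 identifiers (95.9%), and UHRF1, CCL5, MMP12 and PECAM1 of the lists were not matched.

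Genes were kept with filterByExpr (minimum count 10), scaled by TMM and tested with edgeR 4.0.16 (R 4.3.3), glmQLFit and glmQLFTest, with the replicate number as a block. P-values were adjusted by Benjamini-Hochberg over all genes tested, and the threshold was 0.05. The SE is the log2 fold change divided by the root of the F statistic. CPM values use TMM factors over the 25 libraries, and comparisons of levels are made within a gene. Total counts of 15169741 to 22500697 reads per library set the precision of low genes.

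The replicate numbers were taken to pair the libraries because every same-number correlation of deviations was over 0.1 (0.37 to 0.51 here, 0.38 to 0.59 in the comparison without shCEBPB), although other numbers of the same replicate set correlated about as well (0.26 to 0.52). No pair of libraries within a group agreed to within sampling noise, the chi-square per gene being at least 1.99 over 50 pairs. In OIS-shCEBPB it was 2.57 to 8.84 within a replicate set and 19.0 to 27.0 across the sets. In OIS-shCEBPB-shp53 it was 2.18 to 4.06 within and 14.1 to 16.0 across. The SE and adjusted p values treat the libraries of a group as independent after the block. If the replicate sets are the independent units, these values can overstate the precision. The labels do not settle this. Alternatives were upper-quartile factors, library sizes alone, DESeq2 1.42.0, other filters, no block, all 25 libraries in 1 fit, leaving out each replicate, and, added after the data were seen, replicates 1 to 3 and 4 and 5 alone. On simulated counts for 13316 genes of this comparison, edgeR recovered 77.6%, 95.5% and 98.5% of genes changed by 1.5, 2 and 4-fold, with 8.12% of its calls false.

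The gene lists, the rule for naming genes and the tests were chosen with earlier results of these data known. Genes named were CEBPB and HRAS, and the 10 largest rises and falls (adjusted p under 0.05, at least 1 CPM, a symbol, no overlap of the groups). Also named were members of each list by size of change, any p53 target, and the 5 most positive and negative differences. Promoter motifs for interferon-stimulated genes and the p53 sites within 3000 bases were added after the values were seen. Values of some genes that the rule or the lists hold are not reported here.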

Additional observations from a re-analysis of the deposited data

Results flagged for a closer look

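Among 57 genes whose values are described, 114 groups of 5 were checked for 1 library far from the other 4, and 4 had one. The cut-off gives about 1 in 20 groups for 5 independent values of 1 population. These groups consist of 2 replicate sets, so that rate does not apply to them. OAS2 in OIS-shCEBPB had replicate 5 at 4.09 CPM against 1.83 to 2.02 CPM in the others. LIF with shp53 had replicate 5 at 114 CPM against 84.0 to 92.0 CPM, MDM2 with shp53 had replicate 1 at 51.7 CPM against 55.0 to 55.8 CPM, and PCNA with shp53 had replicate 3 at 52.8 CPM against 46.6 to 48.0 CPM.

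For 19 named genes the effect of p53 knock-down differed between the 2 backgrounds by edgeR's test of the difference (adjusted p under 0.05, n = 5 libraries in each of 4 groups). All values are the log2 change with shCEBPB minus that without. The negative ones were GASK1B at -1.53, BEAN1 at -1.43, SLC7A14 at -1.33, LCE1F at -1.29, FGF7 at -1.195, LYNX1 at -1.07, LIF at -0.78, CCND2 at -0.67, MMP3 at -0.53, IGFBP5 at -0.51, HBEGF at -0.49 and LOX at -0.38. The positive ones were BAX at 0.24, FAS at 0.52, ISG15 at 0.53, HSCB at 0.55, ODC1 at 0.66, IFI6 at 0.795 and TRIM22 at 0.89, and 301 of the 1470 exon bases of HSCB overlap a gene on the other strand. Without the replicate block 17 of the 19 were no longer called, and leaving out replicate 1, 2, 3, 4 or 5 ended the call of 11, 9, 7, 4 and 5 of them. In replicates 4 and 5 alone 10 were not called and in replicates 1 to 3 alone 1 was not, GASK1B.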

How the results depend on the processing

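The genes called with shCEBPB numbered 3181 to 4491 when 1 replicate was left out, from 4425, and those without shCEBPB 1538 to 3397, from 3037, the lowest without replicate 1. For the difference between the 2 effects, leaving out 1 replicate gave 29 to 112 genes, from 104, with 29, 34 and 42 without replicates 1, 2 and 3. A fit with no replicate block called 1992, 594 and 6 genes in these 3 comparisons. All 25 libraries in 1 fit gave 2472 with shCEBPB and 1518 without, DESeq2 gave 1921 without shCEBPB, and no low-count filter gave 379 for the difference. An adjusted p under 0.01 left 2796, 1400 and 45 genes, a fold change of at least 1.5 left 753, 524 and 31, and one of at least 2 left 194, 181 and 11. Replicates 1 to 3 alone called 4990 genes without shCEBPB and 1034 for the difference, and replicates 4 and 5 alone called 2416, 1330 and 280. In replicates 4 and 5 the medians were -0.78 for p53 targets, 0.16 for S phase and 0.25 for G2 and M phase, and in replicates 1 to 3 the median of the cytokine list was 0.10. Leaving out 1 replicate kept the medians of p53 targets within -0.69 to -0.63, of S phase within 0.33 to 0.44, of G2 and M phase within 0.51 to 0.66 and of interferon-stimulated genes within 1.38 to 1.53. Changes of sign were counted only for named genes called in the main fit or in the alternative. In replicates 1 to 3 these were CSF3 at 0.20 and COL1A2 at 0.0903. In replicates 4 and 5 they were CSF2 at -0.00634, PLAT at -0.17, VEGFA at -0.000914, HGF at -0.0716, LUM at -0.19, EGR1 at -0.0151 and CEBPG at -0.23. The causes of these shifts were not tested. Over 200 named genes and 14 alternatives, 2782 values of the change with shCEBPB were compared with the main fit. Of these, 158 were no longer called, 37 were newly called and 9 changed sign with a call in at least 1 of the fits. The other 2578 stayed on their side of the threshold. They include changes of sign with no call in either fit, such as CXCL8 at 0.0077 in replicates 1 to 3. With 5 libraries a group and genes near 1 CPM, small changes of low genes were not detectable at this depth.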
